A study of Camellia reticulata with 27 samples.

Results

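This comparison set petals of Camellia reticulata 'Manao' (MN) at the initial flowering stage against petals of the same cultivar at bud stage 3, the late bud stage. Its members were the 3 libraries of each stage, 6 of the 27 libraries of the series, and the transcripts whose mean reached 5 FPKM in at least 1 of the 2 stages, which were 37607 of 225938. FPKM scales the fragments of a transcript by its length and by all mapped fragments of the library, so levels of different transcripts can be set side by side. MN bears white-red mixed flowers, and the series also holds MN at bud stage 1 and, taken separately, its white and red petal regions at full bloom. The other cultivars are the red-flowered 'Shizitou' (SZT) and the white-flowered 'Tongzimian' (TZM), each at the bud and full-bloom stages, with 3 libraries in each of the 9 groups. At the initial flowering stage and at bud stage 3 the white and red areas of MN petals were not sampled apart, so each value is an average over both. In such bulk samples, fewer cells of a type and less RNA per cell cannot be told apart. GEO's labels do not say whether the replicates came from separate plants, so p-values measure the spread between these libraries, which may in part be technical.

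Anthocyanins are the red to purple pigments of petals and are made by the flavonoid pathway. Chalcone synthase (CHS) builds the flavonoid skeleton, flavanone 3-hydroxylase (F3H) turns flavanones into dihydroflavonols, dihydroflavonol 4-reductase (DFR) reduces these to leucoanthocyanidins, and anthocyanidin synthase (ANS) oxidises them to coloured anthocyanidins. Anthocyanidin reductase (ANR) draws anthocyanidins away from pigment towards epicatechin, a building block of condensed tannins. In many plants the genes of this pathway are switched on by complexes of MYB and bHLH transcription factors.

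The 6 libraries were alike in FPKM total. That total is already scaled by mapped fragments, so it does not show the size of a library. FPKM summed to 1205900 ± 9383 at initial flowering and 1226400 ± 42180 at bud stage 3 (SD, n = 3 each), and the exact two-sided permutation test gave p = 0.7. Relative depth, read from the commonest ratio of low values between libraries, lay between 0.946 and 1.102 of replicate 1 of bud stage 3. That reference library aside, only 5.99% to 14.5% of the low values compared lay at or near this ratio. The number of reads in each library is not given. Pearson's r of log2(FPKM + 1) across the tested transcripts, which are not independent replicates, lay between 0.855 and 0.865 within initial flowering, between 0.773 and 0.812 within bud stage 3 and between 0.394 and 0.501 across the stages. The 10 most abundant transcripts took 5.48% ± 0.0273 of the FPKM at initial flowering and 8.98% ± 0.905 at bud stage 3, without overlap of the libraries (exact permutation p = 0.1, the smallest that 3 against 3 can give). No defining markers of petal tissue could be checked, since few transcripts carry a name here.

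More transcripts were lower at initial flowering than were higher. Differences are given on the log2(FPKM + 1) scale as initial flowering minus bud stage 3. Calls needed a difference of 1 or more in either direction together with an adjusted p of 0.001 or less in limma. Of all tested features, 3571 were called higher (9.49%) and 5118 lower (13.6%), together 8689 (23.1%). The features include the summed FPKM of 5 enzymes, of which 4 were called, so that 5114 single transcripts were called lower. Many of these passed the filter only through the stage where they were high. Among the 21088 transcripts past 5 FPKM in both stages, 1227 were called higher (5.82%) and 1684 lower (7.99%). A difference of at least 4 on the log2 scale was reached by 711 transcripts called higher and by 355 called lower, and 520 and 343 of the calls were listed at 0 in all 3 libraries of the low stage. The scale understates the change of low transcripts, and a value of 0 in such a table can also be a failed estimate.

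**Figure D1:**
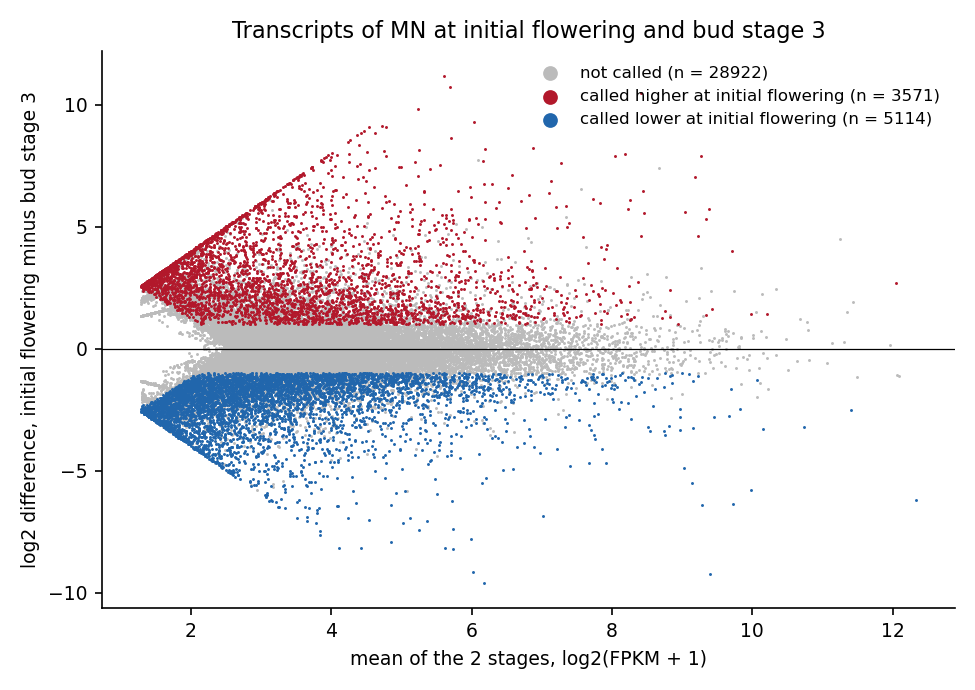
Each point is a tested transcript, with the mean of the 2 stages in log2(FPKM + 1) on the x axis and the log2 difference, initial flowering minus bud stage 3, on the y axis. Red points were called higher at initial flowering (3571), blue points were called lower (5114) and grey points were not called, and the straight edges at the left are transcripts at or near 0 in 1 of the stages.

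The median log2 difference of all tested transcripts was -0.19, and it became 0.03 after the libraries were scaled by median ratios, a shift of 0.22. With that scaling 3904 features were called higher and 3768 lower, so that 49.1% of the calls were lower, against 58.9% without it. The count of calls also depended on the fit and on the pseudocount. Fitted on the 6 libraries alone, without the spread of the other 7 groups, limma called 2231 higher and 2180 lower, and with a pseudocount of 0.01 in place of 1, it called 2821 higher and 3337 lower. Transcripts that share the number before the point in their name may share reads, so FPKM was also summed over each such cluster number. Of 21112 cluster sums tested, 4986 were called (23.6%), and 1788 were called higher (8.47%) and 3198 lower (15.1%). The sum was called in the same direction for 70.2% of the transcripts called higher and 71.9% of those called lower, and in the opposite direction for 20 and 37 transcripts.

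The called transcripts held much of the RNA measured at the stage where they were high. Those called higher made up 24.8% ± 0.428 of a library's FPKM at initial flowering and 2.86% ± 0.232 at bud stage 3 (SD, n = 3 each). Those called lower made up 4.29% ± 0.237 at initial flowering and 26.8% ± 1.22 at bud stage 3. These shares describe the selection itself and carry no test. Over the course of MN, the set called lower took 23.8% at bud stage 1, 26.8% at bud stage 3, 4.29% at initial flowering, 4.41% in white petal regions and 4.48% in red ones at full bloom. The set called higher took 3.52%, 2.86%, 24.8%, 32.3% and 32.1% at the same 5 points. Its median transcript did not follow this share after initial flowering, at 22.3 FPKM there, 18.7 in white regions and 18.4 in red ones. Initial flowering was the highest MN group for 2157 of the 3571 transcripts called higher (60.4%) and the lowest for 1199 of the 5114 called lower (23.4%). The calls used the level at initial flowering, which favours such extremes. Of the transcripts called lower, 4942 (96.6%) also had means below that of bud stage 3 in both regions at full bloom, and of those called higher, 3149 (88.2%) had means above it. Both figures rest on the bud stage 3 libraries that made the calls.

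**Figure D2:**
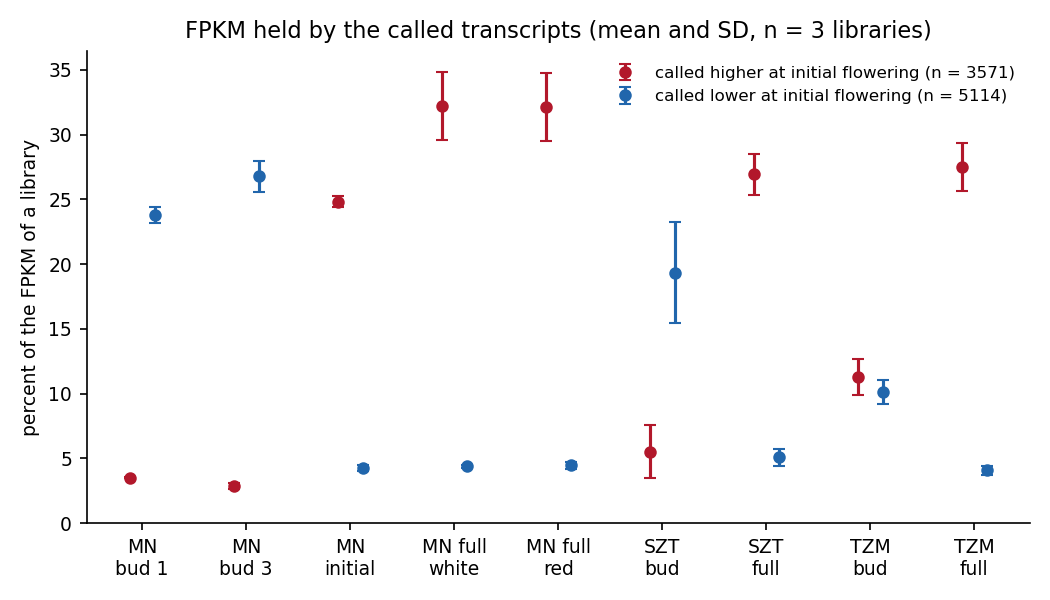
Percent of a library's FPKM held by the transcripts called higher (red) and called lower (blue) at initial flowering in MN, as mean and SD over 3 libraries, for the 9 groups. The red set stood at 24.8% and the blue set at 4.29% at initial flowering, against 2.86% and 26.8% at bud stage 3 of MN.

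SZT and TZM share no library with this comparison, but they were sampled at full bloom and not at initial flowering. The paper describes MN as a bud variety of SZT, so SZT is not an unrelated cultivar. Of the transcripts called higher in MN, 45.1% were called higher at full bloom than at the bud stage of SZT, where 7.6% of all features were, and 2.77% were called lower. Of those called lower in MN, 66.6% were called lower in SZT, where 21.8% of all features were. In TZM, 18.5% of the MN-higher transcripts were called higher (4.45% of all features) and 8.18% lower. Of the MN-lower transcripts, 33% were called lower in TZM, against 12.9% of all features. The median log2 difference of the MN-higher transcripts, full bloom minus bud stage, was 1.42 in SZT but 0.04 in TZM. For the MN-lower transcripts it was -1.79 in SZT and -0.82 in TZM. Seen from the other lists, the MN calls covered 56.4% of what was higher and 41.6% of what was lower in SZT, and 39.5% and 34.7% in TZM.

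Listed transcripts of CHS, F3H, DFR and ANS were lower at initial flowering. A published list names transcripts of these enzymes and of ANR that were correlated with transcription factors, so it may leave out others. Other enzymes of the pathway, such as chalcone isomerase, are not on it and were not examined. Of its 20 transcripts, 17 passed the filter, 15 were called lower and none was above 0 in difference, beside 13.6% of all features called lower. The median log2 difference of the 17 was -3.28, beside -0.19 over all tested transcripts. Of the 12 that passed 5 FPKM in both stages, 11 were called lower, beside 7.99% of all transcripts that did. The study chose these transcripts on the same libraries, so their direction is not independent evidence. The sums of each enzyme add up these same transcripts and share that limit. The sums were 1335 ± 220 FPKM at initial flowering and 8331 ± 660 at bud stage 3 for CHS, 353 ± 121 and 3244 ± 312 for F3H, 130 ± 22.0 and 1531 ± 269 for DFR, and 388 ± 114 and 2142 ± 436 for ANS.

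Within CHS, the transcripts did not move by the same amount. Cluster-72978.11, the most abundant at bud stage 3, had 391, 287 and 418 FPKM at initial flowering, against 3322, 3459 and 3879 FPKM at bud stage 3, which is -3.29 on the log2 scale (SE 0.24, limma adjusted p = 1.29e-09). Cluster-72978.8 had 667, 567 and 801 FPKM at initial flowering, against 1665, 1758 and 1976 FPKM at bud stage 3. Its groups did not overlap either, but its -1.42 on the log2 scale missed the threshold on p (SE 0.52, limma adjusted p = 0.0274), and it was called when the 6 libraries were fitted alone (limma adjusted p = 0.000997). Cluster-72978.8 thus became the most abundant CHS transcript: it held 47.2%, 52.2% and 53.2% of the CHS sum at initial flowering, against 21.4%, 21.6% and 21.8% at bud stage 3. The share of Cluster-72978.11 was 27.3% ± 0.769 at initial flowering and 42.7% ± 0.118 at bud stage 3. For either share the exact two-sided permutation test over 6 libraries gave p = 0.1, its smallest value (adjusted p = 0.12 over the 6 shares compared), and the shares were chosen after their values were seen. All CHS transcripts share a cluster number, so reads may be divided among them differently in the libraries, which was not tested.

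Cluster-72978.4 and Cluster-72978.9 changed by -3.39 and -3.33, and the low Cluster-72978.5 and Cluster-72978.7 by -3.30 and -2.41. With a pseudocount of 0.01, Cluster-72978.4 and the pair of low transcripts lost their calls (limma adjusted p = 0.0215, 0.00117 and 0.0254), and the pair also lost them in the fit on the 6 libraries alone (0.00233 and 0.00643). Cluster-72978.7 lost its call without replicate 2 of bud stage 3 as well (0.00144). For F3H, all 6 transcripts were called lower, over 2 cluster numbers. The most abundant, Cluster-88339.0, had 253, 130 and 175 FPKM at initial flowering, against 1815, 1847 and 1587 FPKM at bud stage 3 (log2 difference -3.28, SE 0.26, limma adjusted p = 3.60e-09). The largest fall was that of Cluster-88339.1, with 8.26, 3.77 and 4.59 FPKM at initial flowering, against 89.8, 61.5 and 114.9 FPKM at bud stage 3 (-3.79, SE 0.30, limma adjusted p = 3.93e-09). The 6 differences lay between -2.61 and -3.79, against -1.42 and -3.39 for CHS.

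DFR and ANS, the reductase and the synthase that finish the coloured aglycone, each rested on 1 abundant transcript. For DFR, Cluster-90241.3 held 95.8% of the sum at initial flowering and 96.8% at bud stage 3. It had 145, 104 and 125 FPKM at initial flowering, against 1305, 1799 and 1343 FPKM at bud stage 3 (log2 difference -3.56, SE 0.45, limma adjusted p = 1.49e-06). For ANS, Cluster-21086.8 held 99.2% and 99.6% of the sum at the same stages. It had 493, 268 and 394 FPKM at initial flowering, against 2552, 1688 and 2161 FPKM at bud stage 3 (-2.49, SE 0.45, limma adjusted p = 0.00011). All libraries at initial flowering were below all libraries at bud stage 3 for both. Without replicate 2 of initial flowering, the adjusted p of Cluster-21086.8 was 0.00119, just past the threshold of 0.001. The other ANS transcript tested, Cluster-21086.7, had 2.86, 1.35 and 3.33 FPKM at initial flowering and 9.77, 2.96 and 6.45 FPKM at bud stage 3, overlapped between the stages and was not called (-1.01, SE 0.84, limma adjusted p = 0.327).

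**Figure D3:**
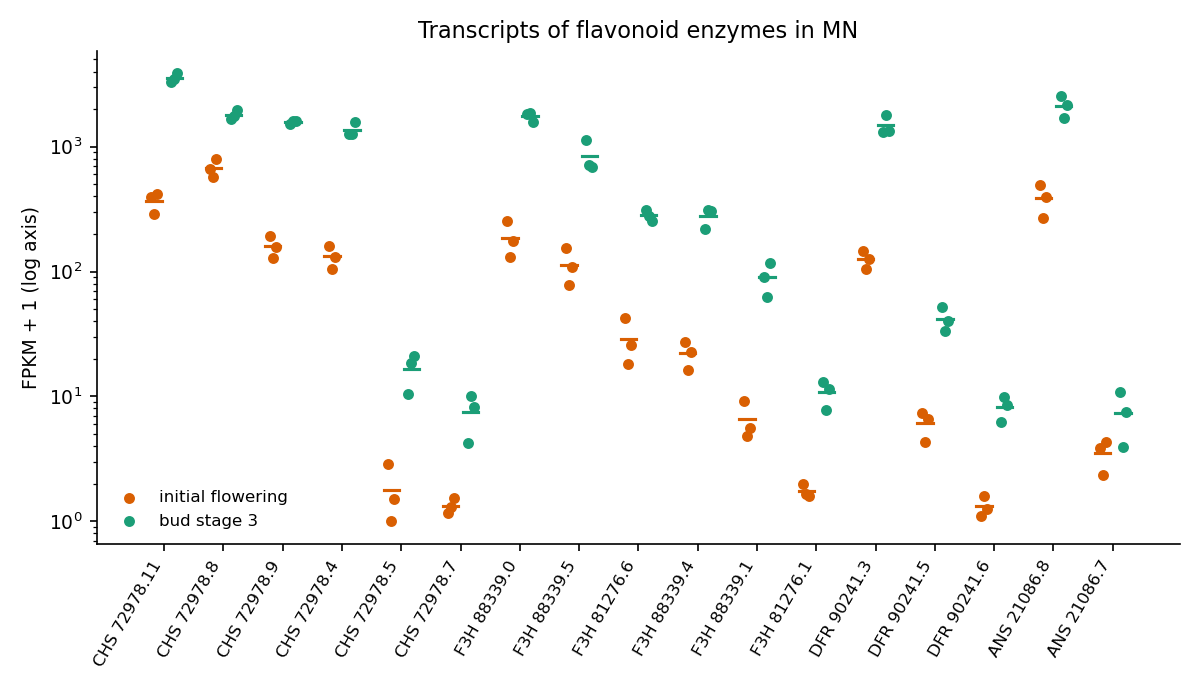
FPKM + 1 on a log axis of the 17 enzyme transcripts that passed the filter, with a point per library, initial flowering in orange and bud stage 3 in green, and a bar at the mean of 3 libraries. Groups overlap for the ANS transcript Cluster-21086.7 and for no other, and the points of the CHS transcript Cluster-72978.8 lie closer together than those of Cluster-72978.11.

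The 2 transcripts that the list names as ANR had values at or near 0 at both stages, which does not show the level of the enzyme's RNA as a whole. Cluster-15097.13 and Cluster-15097.15 were at 0 in the 3 libraries of initial flowering. They reached 1.04 FPKM only in replicate 2 of bud stage 3, so neither could be tested. Their cluster number holds 16 transcripts in all, none of the others named in the sources used here. Summed over that number, a choice made after the values were seen, there were 11.0, 17.98 and 15.2 FPKM at initial flowering, against 102.8, 105.0 and 105.2 FPKM at bud stage 3 (log2 difference -2.77, SE 0.47, limma adjusted p = 5.23e-05). At bud stage 3 most of it was Cluster-15097.11, which had 5.52, 6.67 and 6.04 FPKM at initial flowering, against 70.9, 47.5 and 66.6 FPKM at bud stage 3 (-3.13, SE 0.38, limma adjusted p = 1.00e-06). Along the course of MN, the cluster number stood at 77.5 ± 6.76 FPKM at bud stage 1, 104.3 ± 1.36 at bud stage 3, 14.7 ± 3.52 at initial flowering, 59.2 ± 53.5 in white regions and 65.2 ± 50.0 in red regions. The spread at full bloom was about as large as the mean.

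The listed transcription factors also leaned to lower levels. Of 49 transcripts listed, 47 passed the filter, 21 were called lower, beside 13.6% of all features, and none was called higher. Their median log2 difference was -1.17, and 44 of the 47 were below 0. Of the 33 that passed 5 FPKM in both stages, 11 were called lower, beside 7.99% of all such transcripts. By limma's unadjusted p under 0.05, 2 were higher and 40 lower, beside 23.3% and 32.4% of all features. The count of 21 became 13 in the fit on the 6 libraries alone and 12 with a pseudocount of 0.01. The study picked this list too by correlation over the same libraries, so it is not independent evidence of a direction.

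By family, 5 of 9 MYB transcripts, 2 of 4 bHLH, 3 of 5 B3 and both MADS-MIKC transcripts were called lower, and none of 4 bZIP was, beside 13.6% of all features. With so few members in a family, these counts do not set one family apart from another. The largest fall was in bHLH_4 (Cluster-97329.0), with 0.72, 0.22 and 0.30 FPKM at initial flowering, against 24.8, 26.3 and 25.04 FPKM at bud stage 3 (log2 difference -4.24, SE 0.25, limma adjusted p = 8.47e-11). GRF (Cluster-36771.0), of a family of growth regulators in expanding organs, had 0, 0.41 and 0.35 FPKM at initial flowering, against 20.2, 18.9 and 11.1 FPKM at bud stage 3 (-3.80, SE 0.31, limma adjusted p = 5.97e-09). Both were thus close to 0 at initial flowering.

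MYB_4, MYB_5 and MYB_6 share the cluster number of Cluster-63442.0, and all 3 were called lower. MYB_6 (Cluster-63442.2) was by far the most abundant, with 22.4, 11.9 and 13.1 FPKM at initial flowering, against 208.3, 192.9 and 183.4 FPKM at bud stage 3 (log2 difference -3.59, SE 0.37, limma adjusted p = 1.20e-07). It stood at 274.4 FPKM at bud stage 1, 194.9 at bud stage 3, 15.8 at initial flowering, 0.253 in white regions and 0.640 in red regions. MYB_4 (Cluster-63442.0) had 1.33, 0 and 0.47 FPKM at initial flowering, against 7.30, 16.5 and 12.1 FPKM at bud stage 3 (-3.04, SE 0.35, limma adjusted p = 4.52e-07). It lost its call with a pseudocount of 0.01 (limma adjusted p = 0.00115) and in the fit on the 6 libraries alone (0.00237). All 21 transcripts called lower had lower means in both regions at full bloom than at initial flowering. Among all transcripts called lower, initial flowering was the lowest MN group for 23.4%. The list was picked by correlation over libraries that include full bloom, so this course is not independent evidence about the factors.

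The 2 transcription factor transcripts without a call that had the highest mean over both stages overlapped between the stages. HB-HD-ZIP (Cluster-87964.0) had 78.9, 87.1 and 96.3 FPKM at initial flowering, against 93.8, 92.9 and 105.9 FPKM at bud stage 3. Its groups overlapped and its log2 difference of -0.16 (SE 0.23, limma adjusted p = 0.592) was within the shift of the median, with its sign turned by median-ratio scaling (0.0086). C2C2 (Cluster-74798.6) had 92.3, 74.4 and 70.8 FPKM at initial flowering and 91.1, 106.2 and 119.3 FPKM at bud stage 3, overlapping as well (-0.41, SE 0.56, limma adjusted p = 0.559). The sum of its cluster number was higher, at 626.7 ± 91.3 FPKM at initial flowering and 241 ± 27.9 at bud stage 3. Its libraries did not overlap between the stages, but it was not called (1.37, SE 0.65, limma adjusted p = 0.0841). Among the 47, SNF2, Cluster-73402.0 (bZIP_1) and Cluster-73402.1 (bZIP_2) had differences above 0, and they are also on function lists.

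**Figure D4:**
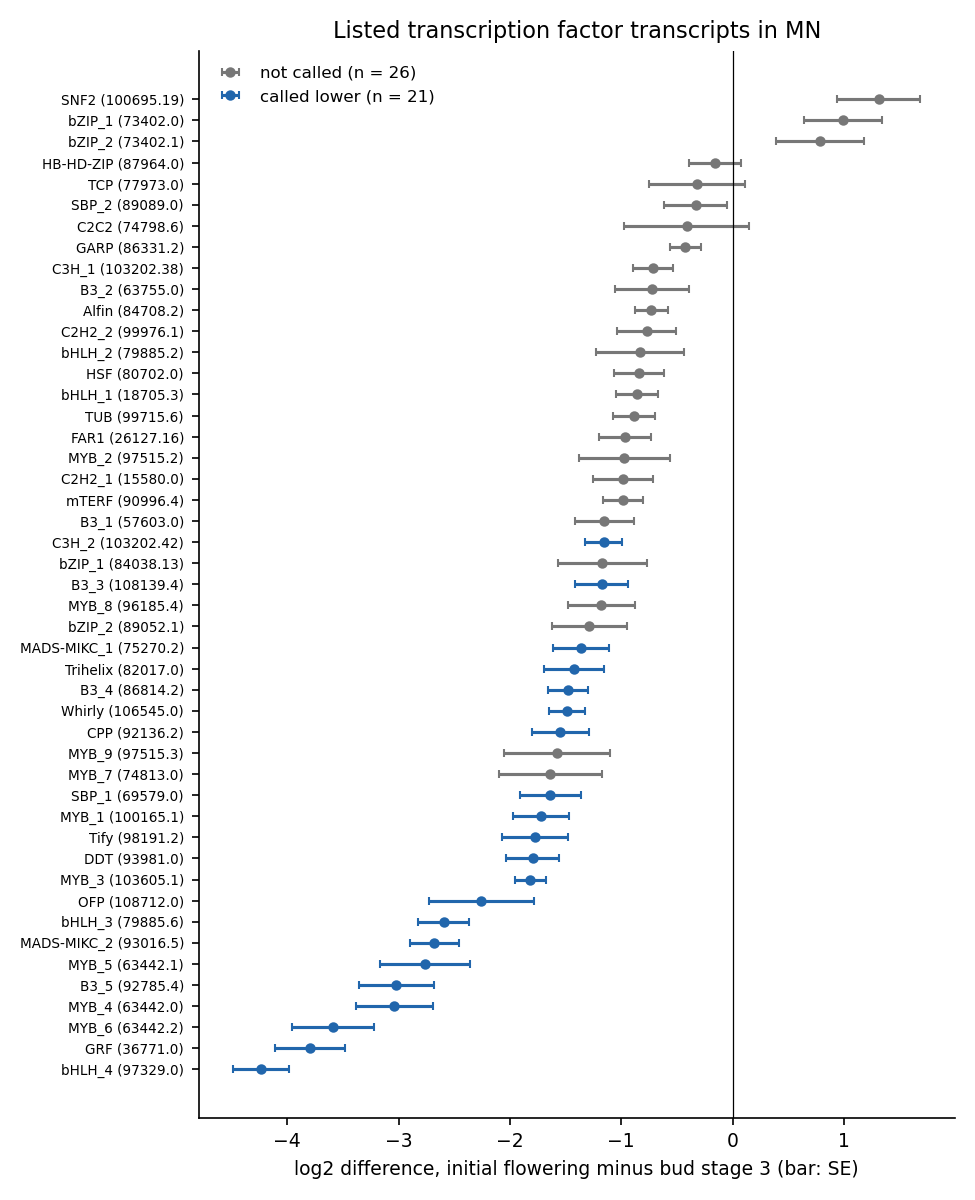
Log2 difference, initial flowering minus bud stage 3, with its SE from limma, for the 47 listed transcription factor transcripts past the filter, with the transcript in brackets. Blue points were called lower (21), grey points were not called (26), and 3 points lie above 0.

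In the cluster number of bHLH_2 and bHLH_3, 2 transcripts moved in opposite directions, a case singled out after its values were seen. bHLH_3 (Cluster-79885.6) had 9.54, 5.94 and 8.09 FPKM at initial flowering, against 49.8, 48.9 and 57.1 FPKM at bud stage 3 (log2 difference -2.60, SE 0.23, limma adjusted p = 1.77e-08), a call lost with a pseudocount of 0.01 (0.0193). Cluster-79885.1, which is not on the list, had 131.4, 105.9 and 129.1 FPKM at initial flowering, against 8.99, 4.35 and 7.62 FPKM at bud stage 3 (3.99, SE 0.65, limma adjusted p = 3.41e-05). The sum of the number was 151.2 ± 20.7 FPKM at initial flowering and 104.5 ± 18.6 at bud stage 3, and it was not called (0.54, SE 0.41, limma adjusted p = 0.283). The fall of bHLH_3 was thus not seen in the sum of its number.

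The list of miRNA production held the only listed transcripts that were called higher. Like the enzymes, the transcripts of this and the following function lists were chosen on the same libraries and are not independent evidence of a direction. Plants cut microRNAs from hairpin precursors, and the microRNAs then silence target transcripts. All 6 listed transcripts had higher levels in every library of initial flowering than in any of bud stage 3, beside 58.2% of all tested transcripts without overlap in either direction. Of the 6, 3 were called higher, beside 9.49% of all features, and all 6 had a limma adjusted p under 0.05, beside 49.7% in either direction. Their median log2 difference was 1.65. The largest rise was in Cluster-100695.17, with 23.9, 17.8 and 17.4 FPKM at initial flowering, against 7, 2.60 and 1.75 FPKM at bud stage 3 (log2 difference 2.25, SE 0.38, limma adjusted p = 5.61e-05).

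Cluster-100695.13 had 46.1, 33.4 and 21.6 FPKM at initial flowering, against 10.9, 6.49 and 6.84 FPKM at bud stage 3 (log2 difference 1.90, SE 0.29, limma adjusted p = 1.62e-05). Cluster-100695.9 had 46.6, 42.3 and 33.1 FPKM at initial flowering, against 21.3, 11.3 and 13.3 FPKM at bud stage 3 (1.39, SE 0.27, limma adjusted p = 0.000231), and it lost its call without replicate 1 or 2 of initial flowering or without replicate 2 or 3 of bud stage 3 (limma adjusted p between 0.00146 and 0.00246). In the fit on the 6 libraries alone none of the 3 was called, though all 6 listed transcripts kept an adjusted p under 0.05 there. All 6 carry the same cluster number, so they are not 6 independent genes, and Cluster-100695.19 is also listed as the transcription factor SNF2, a family of chromatin remodelling ATPases. The sum over its 22 transcripts was 464.9, 432.7 and 365.8 FPKM at initial flowering, against 271.4, 278.6 and 281.5 FPKM at bud stage 3. That difference of 0.59 (SE 0.12, limma adjusted p = 0.000263) was below the threshold of 1 on the log2 scale.

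For this number the mean at initial flowering was the highest of the MN groups. It stood at 339.9 ± 35.3 FPKM at bud stage 1, 277.2 ± 5.19 at bud stage 3, 421.1 ± 50.6 at initial flowering, 261.1 ± 27.2 in white regions and 300.0 ± 11.4 in red regions. The lowest library of initial flowering (365.8 FPKM) was close to the highest of bud stage 1 (364.5 FPKM), and the difference between these stages was not tested. In TZM all 6 transcripts were called lower at full bloom than at the bud stage, with log2 differences between -2.37 and -3.05. In SZT the differences lay between -0.83 and -1.67, and Cluster-100695.9, Cluster-100695.13 and Cluster-100695.19 were called lower, while Cluster-100695.7, Cluster-100695.10 and Cluster-100695.17 were not (limma adjusted p = 0.0197, 0.0382 and 0.0727). Those cultivars have no library at initial flowering, so the stages are not matched and the difference between cultivars was not tested.

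The sucrose-induced translational repression list holds Cluster-73402.0 (bZIP_1) and Cluster-73402.1 (bZIP_2). Both names are also carried by another transcript that is not on this list, and these others were lower without a call. They were Cluster-84038.13 (bZIP_1, log2 difference -1.17, limma adjusted p = 0.0191) and Cluster-89052.1 (bZIP_2, -1.29, limma adjusted p = 0.00361). Some plant bZIP messages carry an upstream reading frame through which sucrose lowers their translation, which RNA levels do not show. bZIP_1 (Cluster-73402.0) had 118.1, 104.9 and 124.6 FPKM at initial flowering, against 41.9, 56.7 and 80.2 FPKM at bud stage 3, without overlap (log2 difference 0.99, SE 0.35, limma adjusted p = 0.0227). bZIP_2 (Cluster-73402.1) had 37.8, 29.0 and 32.9 FPKM at initial flowering, against 15.2, 16.4 and 26.1 FPKM at bud stage 3 (0.79, SE 0.39, limma adjusted p = 0.103). Neither was called, and at an unadjusted p under 0.05 in limma 1 of the 2 was higher.

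**Figure D5:**
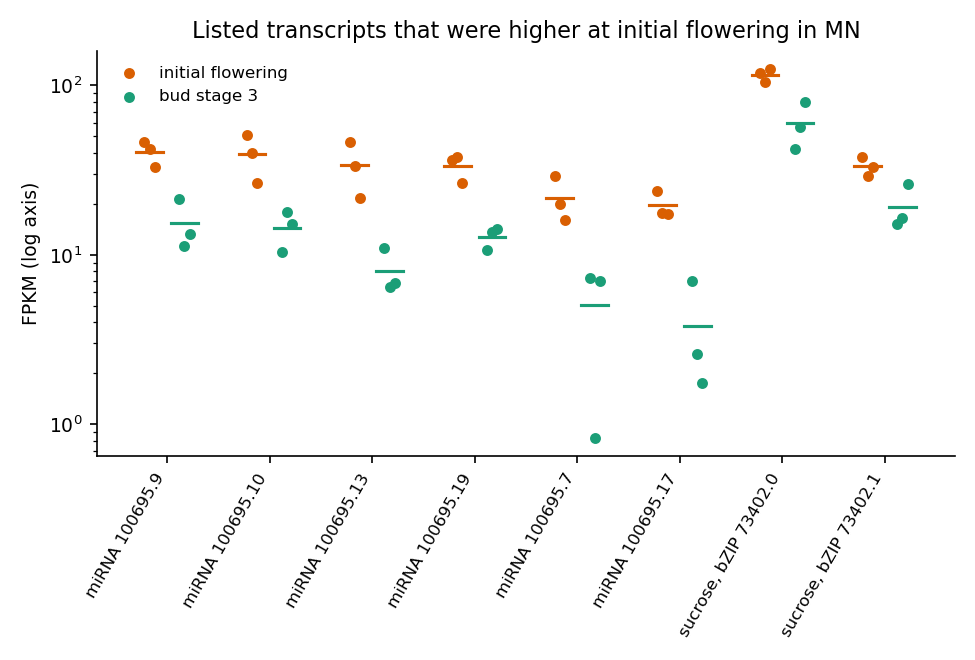
FPKM on a log axis of the 6 listed transcripts of miRNA production and the 2 of sucrose-induced translational repression, with a point per library, initial flowering in orange and bud stage 3 in green, and a bar at the mean of 3 libraries. Every orange point lies above every green point of the same transcript, while 3 of the 8 transcripts were called higher.

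Transcripts listed for floral meristem determinacy, the process that ends stem cell activity in a flower, were mostly called lower. Of 6 tested, 5 were called, 3 of which share a cluster number, beside 13.6% of all features, and the median log2 difference was -1.18. Cluster-41979.0 had 0, 0.18 and 0.08 FPKM at initial flowering, against 5.23, 8.22 and 3.17 FPKM at bud stage 3 (-2.52, SE 0.31, limma adjusted p = 1.24e-06). Cluster-69743.0 had 11.0, 3.08 and 9.08 FPKM at initial flowering, against 44.0, 23.8 and 23.8 FPKM at bud stage 3 (-1.94, SE 0.39, limma adjusted p = 0.000299), a call lost without replicate 2 of initial flowering (0.00336) or replicate 1 of bud stage 3 (0.00309). The other 3 calls, Cluster-72540.0, Cluster-72540.4 and Cluster-72540.7, lay between -1.12 and -1.18, near the threshold of 1. Cluster-93684.10 was not called (-0.63, SE 0.37, limma adjusted p = 0.163). Leaving out any 1 of the 6 libraries left between 1 and 3 calls, the fit on the 6 libraries alone left 0, with 5 at an adjusted p under 0.05 and 6 at an unadjusted one, and median-ratio scaling left 1. Only 2 of the 6 passed 5 FPKM in both stages, of which 1 was called.

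For positive regulation of posttranscriptional gene silencing, 1 of 6 transcripts was called lower (16.7%), near the 13.6% of all features, and the median log2 difference was -0.57. The one called, Cluster-94053.8, had 4.33, 2.17 and 2.93 FPKM at initial flowering, against 22.1, 14.6 and 17.6 FPKM at bud stage 3 (-2.22, SE 0.40, limma adjusted p = 9.62e-05). It lost the call with a pseudocount of 0.01 (limma adjusted p = 0.0505) and in the fit on the 6 libraries alone (limma adjusted p = 0.00103). Cluster-94053.17 had 18.9, 28.6 and 26.5 FPKM at initial flowering, against 54.6, 92.1 and 39.9 FPKM at bud stage 3, without overlap and not called (-1.23, SE 0.32, limma adjusted p = 0.0033). The other 4 had differences between -0.31 and -0.72, with adjusted p of at least 0.176. All but Cluster-64909.3 share the number Cluster-94053. Its sum was 129.1 ± 9.29 FPKM at initial flowering and 235.4 ± 21.5 at bud stage 3, without overlap. That difference of -0.86 (SE 0.13, limma adjusted p = 1.01e-05) was below the threshold of 1 in size. The sum of Cluster-64909 overlapped between the stages (-0.35, SE 0.29, limma adjusted p = 0.321).

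The largest changes were in transcripts with no name in the sources used here. Cluster-70818.1 was the most abundant transcript of every bud stage 3 library. It had 541, 526 and 740 FPKM at initial flowering, against 50697, 45238 and 36446 FPKM at bud stage 3 (log2 difference -6.20, SE 0.33, limma adjusted p = 2.69e-11). Cluster-70818.3 had 78.2, 88.7 and 105.2 FPKM at initial flowering, against 6868, 10799 and 5723 FPKM at bud stage 3 (log2 difference -6.37, SE 0.35, limma adjusted p = 3.35e-11). With Cluster-70818.3 and 3 low transcripts, its cluster number held 0.0575% of the FPKM at initial flowering and 4.23% at bud stage 3. The number stood at 34410 FPKM at bud stage 1, 51950 at bud stage 3, 694 at initial flowering, 1592 in white regions and 1124 in red regions.

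Cluster-60310.4 had 23.4, 17.8 and 36.9 FPKM at initial flowering, against 25083, 13246 and 11750 FPKM at bud stage 3 (log2 difference -9.25, SE 0.68, limma adjusted p = 1.46e-09). Cluster-60310.7, Cluster-94207.5 and Cluster-80287.6 changed by -9.59, -9.17 and -8.20 on that scale. Cluster-60310.4, Cluster-60310.7 and Cluster-94207.5 were also called lower at full bloom than at the bud stage of SZT and TZM. Cluster-80287.6 was not called there (log2 differences of -3.42 in SZT and -4.14 in TZM, limma adjusted p = 0.00772 and 0.00269). Cluster-21335.0 was listed at 0 in the 3 libraries of initial flowering, against 388.0, 225.6 and 277.5 FPKM at bud stage 3. In FPKM, Cluster-2644.4 and Cluster-2644.3 were among the 5 largest losses, and all 3 libraries of initial flowering were below those of bud stage 3 for both. Cluster-2644.4 had 83.7, 241.7 and 83.6 FPKM at initial flowering, against 11026, 3336 and 8065 FPKM at bud stage 3 (-5.79, SE 1.04, limma adjusted p = 0.000102). Cluster-2644.3 had 31.3, 122.1 and 57.8 FPKM at initial flowering, against 5309, 4148 and 6778 FPKM at bud stage 3 (-6.43, SE 1.29, limma adjusted p = 0.000308). Its call was lost when any 1 of the 6 libraries except replicate 2 of initial flowering was left out (limma adjusted p between 0.00116 and 0.00241). The sum of Cluster-45535, the third of the largest falls among cluster sums after Cluster-60310 and Cluster-21335, was 3.49, 1.39 and 1.06 FPKM at initial flowering, against 778.2, 827.8 and 814.4 FPKM at bud stage 3 (-8.17, SE 0.38, limma adjusted p = 4.11e-12).

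Among the rises, Cluster-77649.0 had 1592, 2449 and 3114 FPKM at initial flowering and was listed at 0 in all 3 libraries of bud stage 3 (limma adjusted p = 2.11e-07). It was also listed at 0 at bud stage 1. At full bloom it stood at 613.8 ± 690.8 FPKM in white regions and 310.2 ± 407.8 in red ones, with SDs above the means. Cluster-94147.1 had 1893, 1967 and 2369 FPKM at initial flowering, against 0, 0.87 and 0 FPKM at bud stage 3 (log2 difference 10.71, SE 1.05, limma adjusted p = 6.72e-08). Both transcripts were listed at 0 in every TZM library. Cluster-103154.9 and Cluster-75642.0 were higher by 9.82 and 9.29 in log2 units (limma adjusted p = 4.94e-07 and 3.69e-06).

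The largest gain in FPKM was that of Cluster-81810.5, with 9678, 9361 and 12881 FPKM at initial flowering, against 2295, 1598 and 1190 FPKM at bud stage 3 (log2 difference 2.69, SE 0.47, limma adjusted p = 8.19e-05). Its call was lost with a pseudocount of 0.01 (limma adjusted p = 0.0012). Cluster-74110.0 had 4243, 5019 and 4426 FPKM at initial flowering, against 12.97, 15.1 and 24.9 FPKM at bud stage 3 (7.98, SE 0.72, limma adjusted p = 2.09e-08). Cluster-74110.0 stood at 4502 ± 2531 FPKM in white and 5133 ± 1897 FPKM in red regions at full bloom.

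Cluster-97566.7 and Cluster-97566.6 belong to a cluster number of 15 transcripts, 12 of which were called higher. The number had 29313, 27551 and 24030 FPKM at initial flowering, against 53.2, 58.5 and 366.3 FPKM at bud stage 3 (log2 difference 7.99, SE 1.54, limma adjusted p = 0.000185), or 2.24% and 0.0132% of a library's FPKM. Its SE was large, and the level also varied widely within other groups, at 11980 ± 6550 FPKM in SZT at full bloom and 11820 ± 3190 in TZM at the bud stage. Cluster-97566.6 and Cluster-97566.7 lost their calls when any 1 of the 6 libraries except replicate 3 of bud stage 3 was left out (limma adjusted p between 0.00106 and 0.00224), and Cluster-97566.6 also with a pseudocount of 0.01 (0.00237), in the fit on the 6 libraries alone (0.00293) and in that on the 15 MN libraries (0.00108). In TZM, full bloom minus bud stage was -7.62 for Cluster-97566.6 (limma adjusted p = 0.00491) and -4.52 for Cluster-75642.0 (limma adjusted p = 0.00634), neither of which was called.

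Cluster-1213 was a cluster number with many calls. It holds 303 transcripts, of which 120 passed the filter, 86 were called higher and 1 lower, and its sum was 18561, 20017 and 21381 FPKM at initial flowering, against 616, 489 and 527 FPKM at bud stage 3 (log2 difference 5.20, SE 0.62, limma adjusted p = 7.20e-07). Its share of the FPKM was 1.66% at initial flowering and 0.0443% at bud stage 3. Its largest gain was in Cluster-1213.191, with 5825, 6378 and 7447 FPKM at initial flowering, against 68.4, 51.9 and 32.5 FPKM at bud stage 3 (7.03, SE 1.07, limma adjusted p = 1.60e-05), a call lost with a pseudocount of 0.01 (0.00377). The one transcript called lower, Cluster-1213.101, had 39.7, 44.3 and 53.0 FPKM at initial flowering, against 184.6, 154.7 and 118.3 FPKM at bud stage 3 (-1.71, SE 0.25, limma adjusted p = 1.06e-05).

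Some cluster numbers held calls in both directions. Of the 6040 cluster numbers with a call, 1307 had at least 2, and 201 of these (15.4%) held both directions. In 150 of the 201 the sum was not called. In Cluster-4649, 5 transcripts were called higher and 19 lower, while the sum was 4455 ± 116 FPKM at initial flowering and 5015 ± 214 at bud stage 3 (log2 difference -0.17, SE 0.11, limma adjusted p = 0.194). In Cluster-84501, 2 were called higher and 2 lower, while the sum was 12491 ± 1031 FPKM at initial flowering and 10918 ± 1131 at bud stage 3, with overlap (0.20, SE 0.17, limma adjusted p = 0.357).

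The steps on either side of this one share libraries with it, so they are given only side by side. From bud stage 1 to bud stage 3, 80 of the same features were called higher (0.213%) and 14 lower (0.0372%). At initial flowering, 3571 were called higher and 5118 lower than at bud stage 3. In white regions at full bloom, 1284 were called higher (3.41%) and 3956 lower (10.5%) than at initial flowering, and in red regions 1138 (3.03%) and 3453 (9.18%). These transcripts were chosen by their level at bud stage 3 or initial flowering, so the counts of the other steps leave out those that appear only at other stages. Of the threshold on FPKM, 4396 transcripts lay just inside, with a larger mean from 5 to under 6, and 5961 just outside, from 4 to under 5.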

How the data were processed

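RNA of MN petals at the initial flowering stage and at bud stage 3 (3 libraries each) was compared. The authors used Trimmomatic 0.36 for trimming and Trinity for a de novo assembly, onto which reads were mapped. For mapper and quantifier, names were not given in the sources used here, and the deposited values are FPKM with 2 decimals.

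Transcripts with a mean of at least 5 FPKM in either stage were tested on log2(FPKM + 1) with limma 3.58.1 (R 4.3.3), with 1 mean per group over all 27 libraries and a spread moderated with a trend. Benjamini-Hochberg adjustment covered 37612 features, the transcripts and 5 enzyme sums. Enzyme sums were called at an adjusted p under 0.05 and transcripts as stated in the report. DEGseq, which the study used, needs counts and was not run. Exact permutation tests used all 20 regroupings. The fit was tested on simulated data. Plots were drawn with matplotlib.

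Names come from the study's supplementary table; other transcripts carry no annotation here. Values are given for up to 4 called and 2 uncalled transcripts per list, the 5 largest rises and falls on the log2 and on the FPKM scale, the 3 largest rises and falls of cluster sums, and the 3 most abundant cluster numbers with both directions. Further ones are said to be chosen after their values were seen, as were all single values of cluster numbers. Members and lists were chosen with earlier results of these data known. Alternatives were another pseudocount, filter, adjusted p or fold threshold, median-ratio scaling, fits on 6 or 15 libraries, a replicate block and each library left out; sums over whole cluster numbers were added after seeing the data.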

Additional observations from a re-analysis of the deposited data

How the results depend on the processing

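Of the 63 single transcripts followed that had a call, 22 lost it with a pseudocount of 0.01, 21 in the fit on the 6 libraries alone, 5 without a filter, 4 in the fit on the 15 MN libraries, 2 with the replicate block and 7 to 11 when 1 library was left out (62 or 63 tested). With median-ratio scaling, 5 of the 60 that were tested lost it. At an adjusted p under 0.05, 13491 features were called, 5857 of them higher, with 2 gene silencing transcripts lower and 6 miRNA production transcripts higher. The sets called higher and lower then held 34.1% and 5.80% of the FPKM at initial flowering, and 4.86% and 31.8% at bud stage 3. With median-ratio scaling these shares were 26.6% and 3.12% at initial flowering, and 3.61% and 23.8% at bud stage 3, the difference of Cluster-87964.0 turned to 0.0086, and 1 floral meristem transcript was called lower. A pseudocount of 0.01 left 3337 calls lower, 12 transcription factors, 1 floral meristem and 0 gene silencing transcripts. The fit on the 6 libraries alone called 4411 features, 2231 higher and 2180 lower, and 3275 cluster sums, with 13 transcription factors and 0 floral meristem, gene silencing and miRNA production transcripts, although 5, 3 and 6 of these lists had a limma adjusted p under 0.05 and 6, 4 and 6 an unadjusted one. Floral meristem calls were 2 with a filter of 10 and without a filter, 3 in the fit on the 15 MN libraries and 1 to 3 when 1 library was left out, where all calls numbered 6901 to 7804. The replicate number as a block gave 8401 calls and 3 floral meristem transcripts. Deviations of same-numbered libraries correlated between -0.0116 and -0.000727. The labels do not say whether same-numbered libraries share a plant or batch, and these values cannot decide it. The ANR sum over its whole cluster number was called (-2.77, limma adjusted p = 6.35e-05), unlike the sum of its 2 named transcripts (-0.34, adjusted p = 0.801). The cause of these shifts was not tested. The files give no read counts per library, so the counting error of low values was not computed.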
